A study of Mus musculus with 165 samples.

Results

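Chromosome 11 was described from its 4 compartment tracks as all of its 25 kb bins that held a non-missing, non-zero value in every track. All 4746 bins found on the chromosome met this rule and 0 were left out. They covered 118.65 Mb of the genome build mm9 and made up 5.01% of the bins of the 19 autosomes. The whole series held 100644 such bins, counting the X chromosome, and the 18 other autosomes held 90054. Chromosome 11 was chosen by PC1 values of these same 4 tracks, as a gene-rich and stable chromosome, so its low rate of change is given as a description and not as a test. The gene count could be checked only without positions. The RefSeq table on GRCm38.p6 lists 1609 protein-coding genes on chromosome 11, rank 3 of the 19 autosomes, while by number of bins it ranks 11. The label "stable" held in part: it fitted untreated against 15 min best, and it did not describe the lower A share at 30 min.

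In situ Hi-C cross-links chromatin in intact nuclei, ligates DNA ends that lie close together and counts the ligated pairs. The first principal component (PC1) of the resulting contact matrix sorts each chromosome into stretches that contact each other: compartment A, which by convention has positive values and holds open, gene-rich and transcribed chromatin, and compartment B, which has negative values and holds compact, often lamina-bound chromatin. During differentiation from myeloid progenitors to neutrophils, some regions change compartment and the nucleus takes its lobed shape. Mouse chromosome 11 is known to carry many genes of myeloid biology, among them Csf2 (which encodes GM-CSF), Il3, Csf3 (which encodes G-CSF), the granule enzyme gene Mpo and the chemokine genes Ccl3 and Ccl4. Their places among these bins are not given, because no gene annotation of mm9 was used here.

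The cells were ECOMG cells, a C57BL/6 mouse myeloid progenitor line that depends on GM-CSF. Every group carried the genotype labelled human E2A_ER_Pbx1b, wild type, a fusion that keeps cells undifferentiated while estradiol is present. The 4 groups were progenitors, untreated neutrophils obtained after 5 days without estradiol, and such neutrophils after 15 or 30 min with 20 uM A23187, a calcium ionophore, in medium brought to 1 mM CaCl2. The labels call this the fast activation. All groups are thus states of 1 cultured line, and the check of the cell types against marker genes was not possible in contact data. The stated purpose of the series was the way in which calcium signals shape nuclear architecture.

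Of the 165 samples of the series, 17 were Hi-C libraries, and the other 148 were not analysed here. The progenitor track pooled 7 libraries and the untreated track 8 libraries from 7 replicates. The 15 min track came from 1 sample, labelled replicate 2, and the 30 min track from 1 sample, labelled replicate 1. Each group therefore has 1 track, no difference below has a replicate check, and no p-value or SD is given. The comparison stated is the range over the 18 other autosomes, which are not replicates. The progenitor and untreated libraries were re-analysed ones and were sequenced on another instrument model than the activated ones, so treatment and batch cannot be told apart between untreated and activated cells. Between 15 and 30 min, time and replicate cannot be told apart. The number of reads behind the tracks is unknown. In each track the values of a chromosome had a mean of 0 and, on chromosome 11, an SD of 1.00. The zero is therefore the mean of the chromosome itself, and the overall strength of its compartments cannot be read.

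Chromosome 11 was split almost evenly between the compartments. Its A share was 47.9% in the progenitor track and 49.3% in the untreated one, while the 15 min track had 50.5% and the 30 min track 47.7%. The untreated share was the highest of the 19 autosomes, where the others lay between 36.6% and 47.0% with a median of 41.9%. In the other tracks chromosome 11 had rank 3 (progenitor), rank 2 (15 min) and rank 3 (30 min), and chromosome 13 had the highest share in each. Its untreated values were also the least skewed of all autosomes, with a skewness of 0.109 against 0.224 to 0.819 on the others. The mean PC1 of its A bins in that track, 0.948, was the lowest of the 19, and that of its B bins, -0.922, was the farthest below 0. Because each chromosome has a mean of 0, the A share fixes the ratio of these means. They are thus not traits separate from the A share and do not give the strength of either compartment.

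A and B alternated along the chromosome in blocks that were easy to tell apart in 5 Mb windows counted from the centromeric end. Of 25 windows, 2 of them end windows with under 100 bins, 6 were over 80% A in all 4 tracks. They lay at both ends of the chromosome, in window 16 and in windows 20 and 21. Window 16, chr11:75000001-80000000, was 100% A in every track, and its mean PC1 was 1.25 in progenitors, 1.22 in untreated cells, 1.19 at 15 min and 1.20 at 30 min. Window 24, chr11:115000001-120000000, had means of 1.05, 1.00, 1.01 and 1.02 in the same order. At the other extreme, 4 windows were under 20% A in all tracks, namely windows 3, 4, 8 and 9. Window 8, chr11:35000001-40000000, had the lowest means, -0.925, -1.01, -1.04 and -0.939 in the same order. The block between these A-rich and B-rich extremes, windows 12 to 15, had window means between -0.211 and 0.178.

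**Figure D1:**
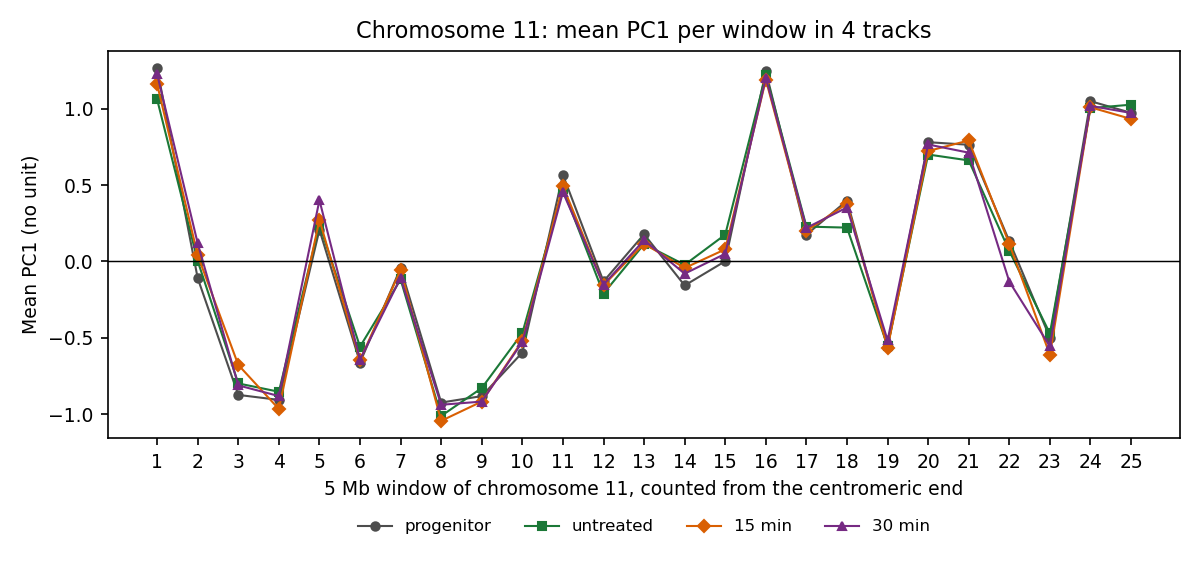
Mean PC1 (no unit) of the 25 windows of 5 Mb of chromosome 11, counted from the centromeric end, with 1 line for each of the 4 tracks. The lines run close together in most windows, and the 30 min line departs from the others in window 22, where its mean was -0.132 against 0.0687 to 0.133 in the other tracks.

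Stretches that kept 1 sign in all 4 tracks were listed by length. The longest stretch that was A throughout was chr11:74425001-80400000 (5975 kb), with mean PC1 of 1.20 in progenitors, 1.21 in untreated cells, 1.17 at 15 min and 1.18 at 30 min. The next ones were chr11:94775001-99125000 (4350 kb; means 1.02 to 1.15), chr11:58650001-62575000 (3925 kb; 1.04 to 1.19), chr11:114500001-118400000 (3900 kb; 1.05 to 1.13) and chr11:3125001-6550000 (3425 kb; 1.02 to 1.27). In the last of these the untreated mean was the lowest and the progenitor mean the highest. The longest stretch that was B throughout was chr11:35675001-40500000 (4825 kb), with means of -1.08, -1.08, -1.19 and -1.07 in the order of the tracks. It was followed by chr11:90125001-93725000 (3600 kb), chr11:13450001-16825000 (3375 kb), chr11:40575001-43225000 (2650 kb) and chr11:17175001-19775000 (2600 kb), whose means lay between -1.16 and -0.937. In all, 71 stretches stayed A and 63 stayed B. The 16 A stretches of at least 1 Mb held 81.9% of the A length that was kept, and the 20 B stretches of that size held 74.0% of the B length.

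Summed over bins, 4297 of 4746 (90.5%) kept the same sign in all 4 tracks, rank 2 of the 19 autosomes. The others kept 84.4% to 92.0%, with a median of 88.2%. Among the bins that did not, the commonest pattern was B in progenitors and A in the other tracks, with 90 bins or 1.90% of chromosome 11 against 1.63% of the other autosomes. The pattern A until 15 min and B at 30 min alone took 56 bins, 1.18% against 0.441%. The pattern B in untreated cells and A in the other tracks took 37 bins, 0.780% against 2.45%. The last pattern was the commonest among the non-constant ones on the other autosomes and stood well below that on chromosome 11.

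The tracks of chromosome 11 were close to each other bin by bin. Pearson r over its bins was 0.964 between progenitor and untreated, 0.981 between untreated and 15 min, 0.969 between untreated and 30 min and 0.982 between 15 and 30 min. Neighbouring bins share reads, so these r are descriptions. The r between untreated and 15 min and that between 15 and 30 min were the highest of the 19 autosomes. By Spearman rho the former stayed the highest and the latter had rank 4. The median absolute PC1 difference between untreated and 15 min, 0.105, was the lowest (0.125 to 0.222 on the others). Local noise moved with this. Measured as the variance of a bin around its neighbours 50 kb away, it was 0.0155 in the untreated track, the lowest of all autosomes (0.0169 to 0.0294 on the others). It was 0.0100 in the progenitor, 0.00859 in the 15 min and 0.00410 in the 30 min track, rank 2 from the lowest in each. The part of noise in the low rate of change was not tested.

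The question of differentiation was addressed by untreated neutrophils against progenitors. Switched bins were those with PC1 of opposite sign in the 2 tracks and a difference no smaller than 0.5 root mean squares of the earlier one, in runs of 2 or more adjacent bins that moved alike. On chromosome 11, 79 bins in 21 runs went from B to A, 1.66% of its bins against 1.55% over all autosomes. From A to B it was 70 bins in 12 runs, 1.47% against 3.23%, and both directions together came to 3.14% against 4.79%. The exits had rank 3 from the lowest of 19. With every track quantile-normalized to the untreated one, the entries were 61 bins (1.29% against 1.94%) and the exits 82 (1.73% against 2.49%), both below the background. This scaling gives every track of a chromosome the same number of A bins. Sign changes each way are then equal in number before the size and run limits, so it cannot tell which direction prevails. The A share was 1.45 percentage points higher in untreated cells, the highest difference of the 19 autosomes. Of the others, 3 were higher and 15 lower, between -4.99 and 1.03 points with a median of -1.50.

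The longest entry was chr11:9300001-9600000 (300 kb), where mean PC1 was -0.353 in progenitors, 0.841 in untreated cells, 0.875 at 15 min and 0.683 at 30 min. Progenitors stood alone there, since all neutrophil tracks were well into A. The entry at chr11:34150001-34350000 (200 kb) had the same shape, with -0.131, 0.875, 0.867 and 0.840. At chr11:74200001-74375000 (175 kb), on the edge of the longest A block, the values were -0.655, 0.437, 0.212 and -0.0231, so that the 30 min track was back at the zero line. The longest exit was chr11:34800001-35350000 (550 kb), where PC1 was 0.439 in progenitors, -0.515 in untreated cells, -0.0591 at 15 min and 0.0826 at 30 min. It lay beyond the distal end of the entry that starts at 34150001. The exit at chr11:31225001-31450000 (225 kb) had values of 0.325, -0.610, -0.498 and -0.345, and there all neutrophil tracks were B. The exit at chr11:94575001-94775000 (200 kb) had 0.384, -0.171, 0.424 and 0.863, so that only the untreated track was B.

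**Figure D2:**
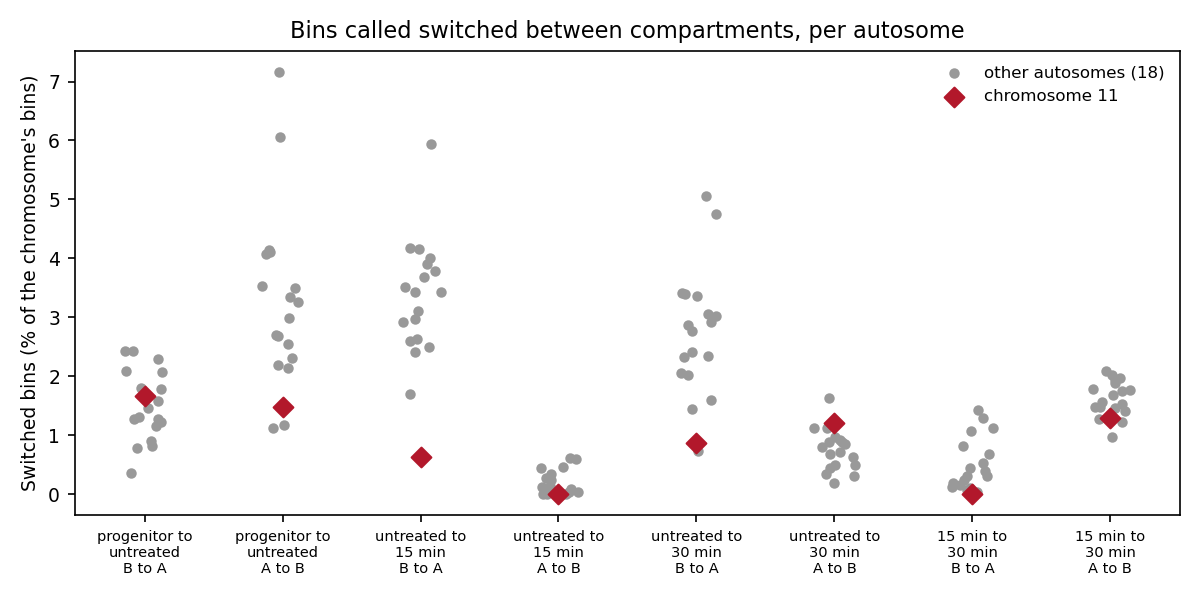
Switched bins as a percentage of the bins of each autosome, for each comparison and direction, with chromosome 11 as a diamond and each of the 18 other autosomes as a point (points are spread sideways for legibility). Chromosome 11 has the lowest B to A share at 15 min (0.632%), rank 2 from the highest for A to B at 30 min against untreated (1.20%) and 0 bins from B to A between 15 and 30 min.

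Activation for 15 min was compared with the untreated track. Only 30 bins of chromosome 11 in 8 runs went from B to A, 0.632% against 3.26% over all autosomes, the lowest share of the 19 (1.69% to 5.95% on the others). From A to B went 0 bins, against 0.187%, and 6 other autosomes also had 0. Both directions together were 0.632% against 3.44%. With every track quantile-normalized to the untreated one, 17 bins (0.358% against 0.729%) went from B to A and 21 (0.442% against 0.804%) from A to B. The A share was 1.16 points higher at 15 min, the smallest difference of the 19, while the others were 3.34 to 8.24 points higher. The longest entries were chr11:94575001-94750000 (175 kb), which had PC1 of -0.185 in untreated cells and 0.425 at 15 min, and chr11:85675001-85850000 (175 kb). The latter had 0.301 in progenitors, -0.112 in untreated cells, 0.466 at 15 min and 0.830 at 30 min. Both were thus A in every track but the untreated one. The entry at chr11:12700001-12800000 (100 kb) had -0.798, -0.607, 0.217 and -0.433 and was A at 15 min alone.

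**Figure D3:**
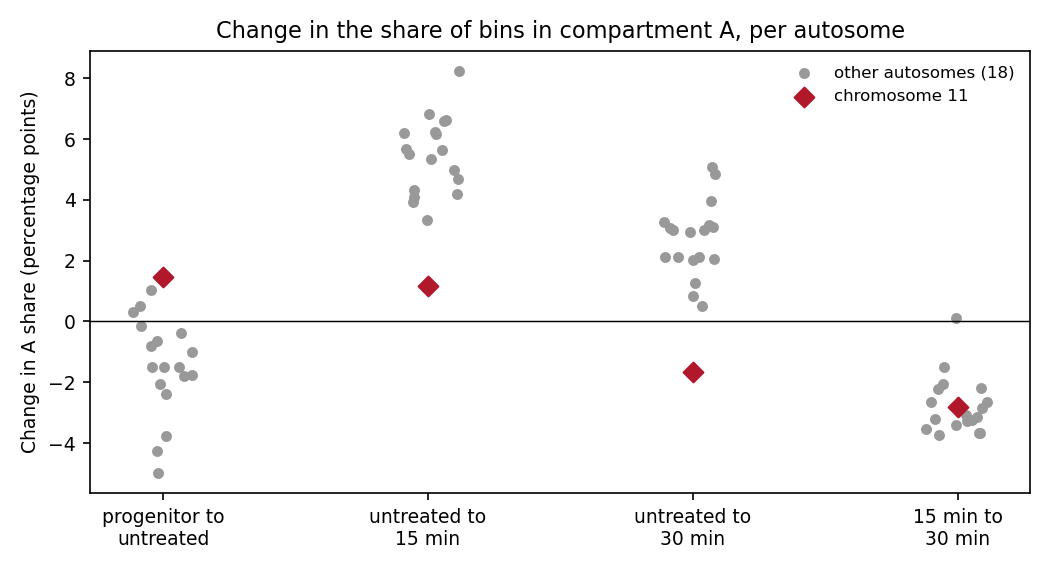
Difference in the A share (percentage points, second track minus first) for each of the 4 comparisons, with chromosome 11 as a diamond and each of the 18 other autosomes as a point (spread sideways for legibility). Chromosome 11 lies above all others from progenitor to untreated (1.45), below all others from untreated to 15 min (1.16) and from untreated to 30 min (-1.66), and among them from 15 to 30 min (-2.82).

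Activation for 30 min was compared with the untreated track too. Against the untreated track, which this comparison shares with the one above, 41 bins in 11 runs went from B to A, 0.864% against 2.59%, while 57 bins in 17 runs left A, 1.20% against 0.808%. Both directions together were 2.06% against 3.4%. The exits ranked 2 from the highest of the 19 autosomes, after chromosome 13 with 1.64%. The place of the exits against the background depended on the scale. With every track quantile-normalized to the untreated one, the exits were 42 bins, 0.885% against 1.38%, and the entries 59 bins, 1.24% against 1.57%, both below the background. Since that scaling equalizes the number of A bins between tracks, it cannot test the balance of exits and entries. With the size limit at 1 root mean square 0 exit bins were left, against 0.0939% over all autosomes. The A share was 1.66 points lower at 30 min than in untreated cells. Chromosome 11 was the only one of the 19 autosomes with a lower share, the others being 0.496 to 5.10 points higher. With the zero moved to the midpoint of the authors' domains, the difference on chromosome 11 was -1.62 points, and the lowest of the others was then -0.0171.

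Of the 17 exits at 30 min, 6 removed a whole A segment (at least 90% of its bins), 9 trimmed its edge and 2 lay inside it. These classes were set after the values were seen. The longest exit was chr11:108050001-108225000 (175 kb), with PC1 of 0.140 in progenitors, 0.549 in untreated cells, 0.202 at 15 min and -0.283 at 30 min. At chr11:111000001-111175000 (175 kb) the values were -0.172, 0.346, -0.0510 and -0.249, so that the untreated track stood alone in A. At chr11:105000001-105150000 (150 kb) they were 0.295, 0.312, 0.395 and -0.378, and there the 30 min track stood alone in B. The longest entries were again chr11:94575001-94775000 and chr11:85675001-85850000, followed by chr11:34975001-35075000 (100 kb) with 0.320, -0.625, -0.165 and 0.0747. The last lies within the long progenitor-to-untreated exit described above.

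From 15 to 30 min, 0 bins of chromosome 11 went from B to A, against 0.501% over all autosomes, and each of the other 18 had at least some (0.0395% to 1.42%). After the quantile normalization 18 bins of chromosome 11 did, 0.379% against 0.887%, and 31 went from A to B, 0.653% against 0.643%. The opposite way went 61 bins in 14 runs, 1.29% against 1.62% (2.12% for both directions over all autosomes). The A share was 2.82 points lower at 30 min, within the range of the others (-3.75 to 0.130 points). The longest exit was chr11:118425001-118775000 (350 kb), with PC1 of -0.274 in progenitors, -0.287 in untreated cells, 0.117 at 15 min and -0.508 at 30 min. It was A at 15 min alone, as was chr11:109825001-110050000 (225 kb) with -0.0679, -0.0684, 0.199 and -0.380. At chr11:104975001-105175000 (200 kb), which takes in the 150 kb exit named above, the values were 0.241, 0.217, 0.329 and -0.443.

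Of the exit bins, 68.9% from 15 to 30 min and 50.9% against untreated lay toward the distal end, which holds 18.4% of the bins. Exits can come only from A bins, which were also more frequent there. No such share of exit bins is given here for the other autosomes. The limit of 100 Mb used to count them was set after the values were seen. The 874 bins beyond it are 18.4% of the chromosome, and they held 29 of the 57 exit bins against untreated (50.9%) and 42 of the 61 exit bins against 15 min (68.9%). The A share beyond the limit was 66.6% in progenitors, 67.0% in untreated cells, 68.3% at 15 min and 61.2% at 30 min. Before the limit it was 43.6%, 45.3%, 46.5% and 44.6%. The 30 min track was thus the lowest of the 4 in the distal stretch and lay within the range of the other tracks in the rest.

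Averaged over 5 Mb windows the tracks differed little. Among the 23 windows with at least 100 bins, the root mean square of the window differences was 0.0913 from progenitor to untreated (rank 3 from the lowest of 19), 0.0757 from untreated to 15 min (the lowest), 0.0838 from untreated to 30 min (rank 2) and 0.0785 from 15 to 30 min (rank 8). The medians of the other autosomes were 0.137, 0.107, 0.116 and 0.0841. The ranks moved with the setting. From untreated to 15 min the value was still the lowest with windows shifted by 2.5 Mb, and had rank 3 after quantile normalization. From 15 to 30 min the rank from the lowest was 12 and 5 in these settings. Of the windows of chromosome 11, 1 fell outside the 5th to 95th percentile of the 450 windows of the other autosomes at 30 min, both against untreated and against 15 min. It was window 22, chr11:105000001-110000000, which lay below the band. By definition 5% of the 450 windows lie below the band, and 1 of 23 does not exceed that share. The lowest of the 450 were -0.485 against untreated and -0.414 against 15 min. Both differences of window 22 use the same 30 min track. The mean PC1 of window 22 was 0.133 in progenitors, 0.0687 in untreated cells, 0.114 at 15 min and -0.132 at 30 min. Its A share was 53.0%, 52.0%, 54.5% and 39.5% in the same order. It held 13 of the exit bins against untreated and 19 of those against 15 min, more than any other window of the chromosome.

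Other windows moved less and in several ways. Window 18, chr11:85000001-90000000, was lowest in untreated cells, with means of 0.398, 0.221, 0.378 and 0.353, and it includes the entry that starts at 85675001. Window 15, chr11:70000001-75000000, was highest there, with 0.00151, 0.176, 0.0793 and 0.0499. Window 5, chr11:20000001-25000000, had 0.207, 0.241, 0.273 and 0.401, with the 30 min track as the highest. Window 23, chr11:110000001-115000000, had -0.499, -0.472, -0.612 and -0.556, and its A share was 30.5% in untreated cells against 18% at 15 min and 16.5% at 30 min. Window 21, chr11:100000001-105000000, had 0.764, 0.662, 0.792 and 0.712, the untreated mean being the lowest. Window 14, chr11:65000001-70000000, and window 10, chr11:45000001-50000000, had their lowest means in progenitors, -0.157 and -0.597, against -0.0803 to -0.0222 and -0.528 to -0.470 in the other tracks. Window 11, chr11:50000001-55000000, had its highest mean in progenitors, 0.567 against 0.453 to 0.494. Window 2, chr11:5000001-10000000, includes the entry that starts at 9300001 and had means of -0.110, 0.00273, 0.0404 and 0.119.

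The B-rich windows moved too, without leaving B. Window 3, chr11:10000001-15000000, was least negative at 15 min, with -0.874, -0.799, -0.678 and -0.812. Window 4, chr11:15000001-20000000, was most negative then, with -0.907, -0.854, -0.967 and -0.882. In window 9, chr11:40000001-45000000, the untreated mean of -0.829 was above those at 15 and 30 min, which were both -0.918.

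**Figure D4:**
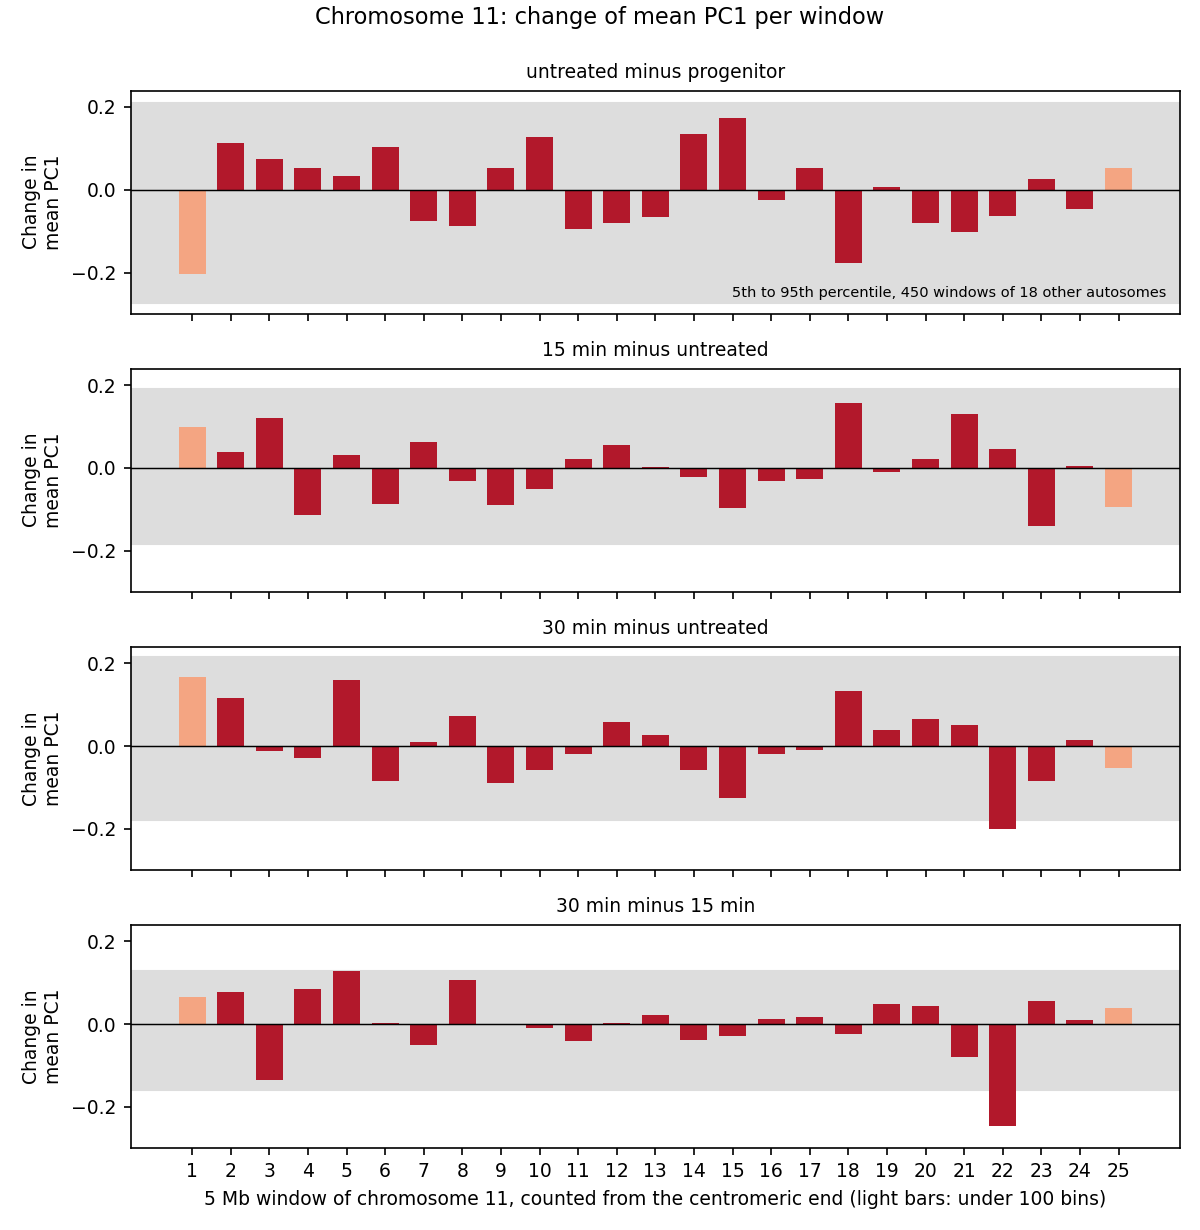
Difference in mean PC1 (no unit) of each 5 Mb window of chromosome 11 for the 4 comparisons, with light bars for windows under 100 bins. The grey band is the 5th to 95th percentile of 450 windows of the other autosomes; window 22 passes below it at 30 min, with a difference of -0.201 against untreated, where the band ends at -0.178, and of -0.247 against 15 min, where it ends at -0.159.

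Segments are runs of neighbouring bins of 1 sign. Chromosome 11 had 139 in progenitors, 145 in untreated cells, 139 at 15 min and 99 at 30 min. Per 100 Mb these were 117, 122, 117 and 83.4. The untreated value was the lowest of the 19 autosomes (128 to 198 on the others) and those at 15 and 30 min had rank 2 from the lowest, while the progenitor value had rank 11 from the highest, near the median of 121 on the others. Fewer segments went with lower local noise at 30 min as well, and the part of noise in the segment count was not tested. Median A segments were 200 kb, 200 kb, 187.5 kb and 325 kb long in the order of the tracks, and median B segments 462.5 kb, 437.5 kb, 450 kb and 787.5 kb.

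Between 51.1% and 71.6% of the borders between segments lay within 50 kb of a border of the second track, depending on the comparison. Of 141 borders of the untreated track, 50 (35.5%) lay in the same place at 15 min, above the 17.3% to 35.4% of the other autosomes, and 101 (71.6%) lay within 50 kb, rank 2 of 19. At 30 min, 24 (17.0%) were in the same place and 72 (51.1%) within 50 kb, against a median of 48.0% on the others. Of 135 progenitor borders, 84 (62.2%) had an untreated border of the same kind within 50 kb, rank 17 of 19. From 15 to 30 min it was 71 of 135 (52.6%), rank 14, against a median of 54.8% on the others. By this measure chromosome 11 was not among the stable autosomes across differentiation or between the activated tracks.

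The authors' domains of the untreated track describe the same values in fewer, longer pieces. They listed 57 positive (A) domains of chromosome 11 with a median length of 350 kb and 57.8 Mb in total, and 53 negative (B) domains with a median of 750 kb and 59.25 Mb in total. The longest A domain, chr11:74200001-80400000 (6200 kb), had mean PC1 of 1.14, 1.19, 1.13 and 1.14 in the order of the tracks. The next, chr11:94775001-99150000 (4375 kb) and chr11:58650001-62725000 (4075 kb), had means between 1.02 and 1.14. The longest B domain, chr11:11725001-16825000 (5100 kb), had -0.959, -0.911, -0.774 and -0.907. It was not B throughout, since it holds the 100 kb run named above that was A at 15 min, and the longest A domain begins with the 175 kb run that was B in progenitors. The next, chr11:35675001-40500000 (4825 kb) and chr11:90125001-93725000 (3600 kb), had means between -1.19 and -0.993.

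Since the domains were made on the untreated track, their sign in the other tracks is a description. Of the A domains, 12 (21.1%) were negative in progenitors, 3 (5.26%) at 15 min and 11 (19.3%) at 30 min. On the other autosomes these shares were 10.9%, 2.76% and 10.0%, lower in each track. Of the B domains, 5 (9.43%) were positive in progenitors, 5 (9.43%) at 15 min and 6 (11.3%) at 30 min, against 22.0%, 24.8% and 22.6% on the others. B domains were longer on chromosome 11 than on the others, where the median was 500 kb. A split at 250 kb, set after the values were seen, showed most of the change in short domains. Of 22 short A domains, 10 (45.5%) were negative in progenitors and 8 (36.4%) at 30 min. Of 35 longer ones 2 (5.71%) and 3 (8.57%) were. On the other autosomes the shares were 23.3% and 23.9% of short A domains and 4.06% and 2.32% of longer ones. The weight on short domains was thus not particular to chromosome 11. Of 43 longer B domains, 1 was positive in progenitors (2.33% against 11.5%), 2 at 15 min (4.65% against 11.3%) and 1 at 30 min (2.33% against 9.01%). The B domain that moved over the greatest length was chr11:34800001-35550000 (750 kb), with 0.334, -0.527, -0.104 and 0.0274. Among A domains it was chr11:110400001-111200000 (800 kb), with 0.101, 0.271, -0.0934 and -0.0820. Both were picked after the values were seen.

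**Figure D5:**
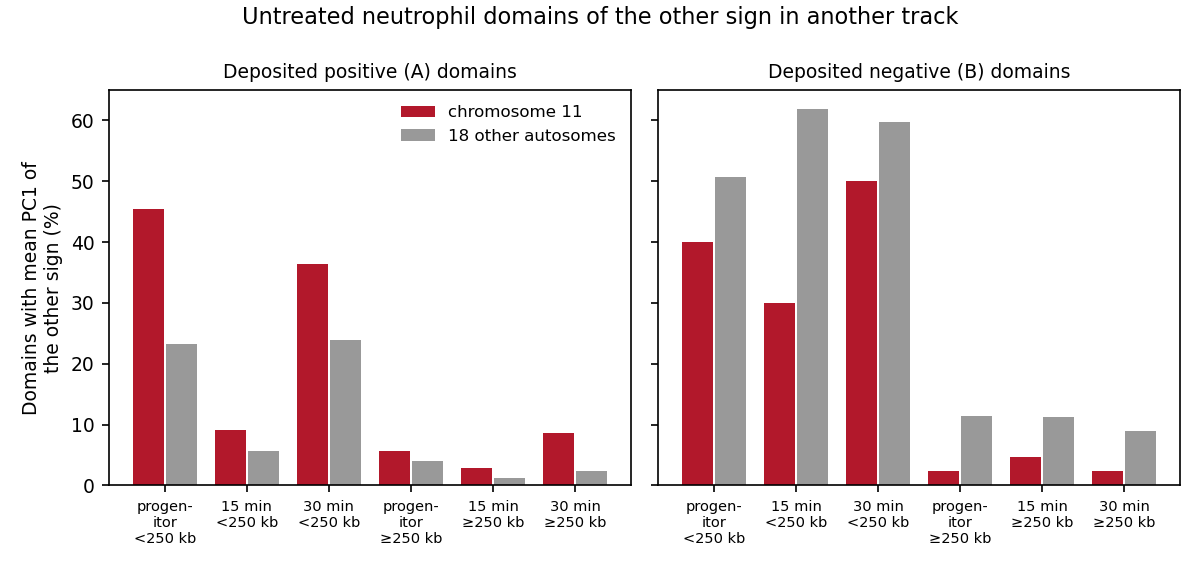
Percentage of the authors' untreated-neutrophil domains whose mean PC1 has the other sign in another track, for domains under 250 kb and of at least 250 kb, on chromosome 11 and on the 18 other autosomes together. Chromosome 11 has higher bars for A domains (45.5% against 23.3% for short ones in progenitors) and lower bars for B domains (2.33% against 11.5% for longer ones in progenitors).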

How the data were processed

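PC1 values were deposited as scores with no unit. The submitters' processing notes name HiC-Pro, Bowtie2, HOMER and the build mm9, and tool versions are not given in the sources at hand. Bins are spaced at 25 kb in windows of 50 kb. The authors also deposited positive and negative domains of the untreated track, with their lengths and a score that equalled the mean PC1 of that track to within 5.11e-15 on chromosome 11.

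Bins with a non-missing, non-zero value in all 4 tracks were kept. Shares, switched bins, windows of 5 Mb and segments were computed on all 19 autosomes with Python 3.11.15, numpy 2.4.6, pandas 2.3.3 and scipy 1.17.1, and figures with matplotlib 3.10.9. The switch rule and the noise measure were tested on simulated data. Regions named were the 3 longest runs of switched bins per direction and comparison, the 3 windows that moved most each way, the 5 longest stretches that kept 1 sign and the 3 longest domains of each kind; others are said to be picked after their values were seen. The members and these lists were chosen with earlier results of these data known. No test was made, since each group has 1 track. Alternatives were another size limit, run length, zero, scaling, smoothing, bin spacing and window offset. Coordinates are 1-based mm9 positions. The reference tables are on GRCm38.p6, so no gene was placed on a bin and no sequence is printed.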

Additional observations from a re-analysis of the deposited data

Results flagged for a closer look

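The differences from the untreated track were set side by side for 15 and 30 min in 23 results of chromosome 11, and in 8 they had opposite signs. The 23 were the A share and windows and runs named above. Some of these were picked for a large difference between 15 and 30 min, so 8 of 23 is not a rate for the chromosome. Both differences use the same untreated track and each time has 1 sample, so the gap between the times was not tested. The A share was 1.16 points above untreated at 15 min and 1.66 points below it at 30 min (-1.66), a gap of -2.82 points. In window 22, chr11:105000001-110000000, the differences in mean PC1 were 0.0457 and -0.201, a gap of -0.247. In window 3, chr11:10000001-15000000, they were 0.121 and -0.0127, a gap of -0.134. In window 8, chr11:35000001-40000000, they were -0.0321 and 0.0733, a gap of 0.105 in the other direction.

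The other 4 were runs of bins, picked because PC1 changed sign there between tracks. At chr11:105000001-105150000 the differences were 0.0831 and -0.690, a gap of -0.773, and at the longer run chr11:104975001-105175000, which holds it, they were 0.112 and -0.660, a gap of -0.772. At chr11:118425001-118775000 they were 0.404 and -0.222, a gap of -0.625. At chr11:109825001-110050000 they were 0.268 and -0.312, a gap of -0.579.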

How the results depend on the processing

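All 12 alternatives for the A share, 8 for the window differences and 4 for the segments stayed within the limits set for a like value. Those limits compared sizes, not directions or ranks. For the A share the limit was a binomial 95% interval, which takes bins as independent although neighbouring bins share reads. Around the untreated share that limit takes in the 15 min share, so it is a loose one. The A share alternative that took the bins of each track itself could not differ, because no bin was left out. Under the quantile normalization the balance of entries and exits turned in each comparison that involves the untreated track, as given above. That scaling makes sign changes equal in number each way. What is left of the balance comes from the size and run limits and is not read as a reversal. The named runs were checked under quantile normalization, the moved zero and the running median. Their 2 mean PC1 values stayed on opposite sides of 0 in 54 of 54 cases. That was the only limit for runs, which were picked for opposite signs, and sizes could differ. At chr11:85675001-85850000 the difference from untreated to 15 min was 0.479 after quantile normalization against 0.578. The mean PC1 differences of the named windows were checked under quantile normalization only. They stayed alike in 23 of 24 cases, and 0 changed direction. The exception was window 22 from 15 to 30 min, which was -0.187 after quantile normalization against -0.247. Counts of switched bins depended more on the settings. A count of 0 that stayed 0 was taken as alike, though a larger size limit or longer run could not raise it. In this way 34 of 48 counts stayed within 1.5 times. With a size limit of 1 root mean square, they were 21 (B to A) and 15 (A to B) from progenitor to untreated, 0 (B to A) from untreated to 15 min, 7 and 0 from untreated to 30 min, and 0 (A to B) from 15 to 30 min. With runs of at least 4 bins they were 50 (B to A) from progenitor to untreated, 18 (B to A) from untreated to 15 min, and 23 and 25 from untreated to 30 min. With every track quantile-normalized to the untreated one they were 17 and 21 from untreated to 15 min and 18 and 31 from 15 to 30 min. The counts of 0 given for these comparisons were thus not kept under a scaling that makes sign changes equal each way. Spearman rho was 0.969 between progenitor and 30 min, where r was 0.977, and 0.975 between 15 and 30 min, where r was 0.982. Beyond these constructions the cause was not tested. No paired analysis was possible because each group has 1 track, and for the same reason no replicate could be left out. The depth behind each track is unknown, so no interval is given.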
